A study of Bos taurus with 8 samples.

Results

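DNA methylation was examined over 10 genes with known roles in body size and growth of cattle, namely PLAG1, CHCHD7, NCAPG, LCORL, IGF1, IGF1R, HMGA2, GH1, IGFBP3 and IGFBP5. The genes were chosen by name, and every 3Kb window of the genome that carries the symbol of 1 of them was taken, with 2 windows on each side. The symbols of 9 of the 10 genes are in the files, over 213 of the 902984 windows, and HMGA2 is present only under a provisional locus name. IGF1R holds 101 of the 213 windows, LCORL 51, IGF1 25, NCAPG 15, IGFBP5 7, PLAG1 5, IGFBP3 4, CHCHD7 3 and GH1 2, and 36 windows flank them.

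The study asked whether the methylome of dermal fibroblasts differs between Holstein cattle, bred for milk, and Angus cattle, bred for beef. Skin was taken from the shoulder of heifers of the same age in both breeds, fibroblasts were grown out, and DNA was collected at passage 5 from cells that received no treatment. Each breed was represented by 4 cultures from 4 separate animals, with 1 MIRA-Seq library per culture, called here by breed and animal number, and where a value is given for every culture of a breed, the values stand in the order of these numbers from 1 to 4. All values describe cultured cells of 1 skin site, and breed and the way the calves were reared cannot be told apart in this design. MIRA-Seq, the methylated CpG island recovery assay, pulls down sonicated DNA with a pair of methyl-CpG binding proteins, so the number of reads in a window rises with its methylated CpG sites. It also depends on how many CpG sites the window has and on its copy number, and no input library was used here to separate these.

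Growth hormone, encoded by GH1 in the pituitary, acts on the liver and other tissues to raise insulin-like growth factor 1, which binds the receptor IGF1R, and the binding proteins IGFBP3 and IGFBP5 carry the factor and limit its access to the receptor. PLAG1 is a zinc finger transcription factor whose targets include a growth factor of the same family, and it lies head to head with CHCHD7, which encodes a mitochondrial protein, in a region of chromosome 14 that is associated with stature in cattle. NCAPG, a subunit of the condensin I complex that compacts chromosomes in mitosis, and LCORL, a ligand-dependent corepressor-like transcription factor, are neighbours on chromosome 6 in a region associated with body size and carcass traits, and HMGA2 is an architectural chromatin factor linked to height in several species.

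The totals over all windows were between 18691111 and 35525554 reads per library, and reads are given relative to this total as CPM for a window and, divided also by the length of its windows in kb, as RPKM for a gene. In the deepest and the shallowest library 3 reads, the limit set for telling a count from 0, equalled 0.0844 and 0.161 CPM. This limit covers counting error only, as PCR copies of a fragment are counted separately. The most covered 1% of windows held 69.0% of the reads of Holstein 1 and 72.4% of those of Angus 3, against 46.8 to 57.4% in the other 6 libraries. This touches the genes described here, because Holstein 1 and Angus 3 were the 2 lowest libraries in RPKM for 8 of the 9 genes, 1 in each breed.

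Over whole genes, the 9 genes spanned a wide range of the levels of all 25997 gene symbols, of which the median was 0.174 RPKM. IGF1R had the highest mean level, 0.564 ± 0.108 RPKM (SD, n = 8), which was higher than that of 83.8% of gene symbols. PLAG1 followed with 0.545 ± 0.0601 RPKM, GH1 with 0.441 ± 0.101 RPKM, IGFBP5 with 0.302 ± 0.0787 RPKM and IGFBP3 with 0.264 ± 0.0749 RPKM. CHCHD7 lay near the median at 0.170 ± 0.0539 RPKM. IGF1 at 0.0937 ± 0.0320 RPKM, LCORL at 0.0744 ± 0.0200 RPKM and NCAPG at 0.0507 ± 0.0168 RPKM were the lowest, and NCAPG stood above only 9.25% of gene symbols. The receptor thus had a level several times that of its ligand. Within the pair on chromosome 14 the labelled windows of PLAG1 had the higher level in every library. The order of neighbours was the same in 8 of 8 libraries except for IGF1R over PLAG1 (6 of 8 libraries, mean difference 0.0192 ± 0.0624 RPKM) and IGFBP5 over IGFBP3 (5 of 8 libraries, 0.0379 ± 0.0630 RPKM), which do not differ beyond their spread.

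**Figure D1:**
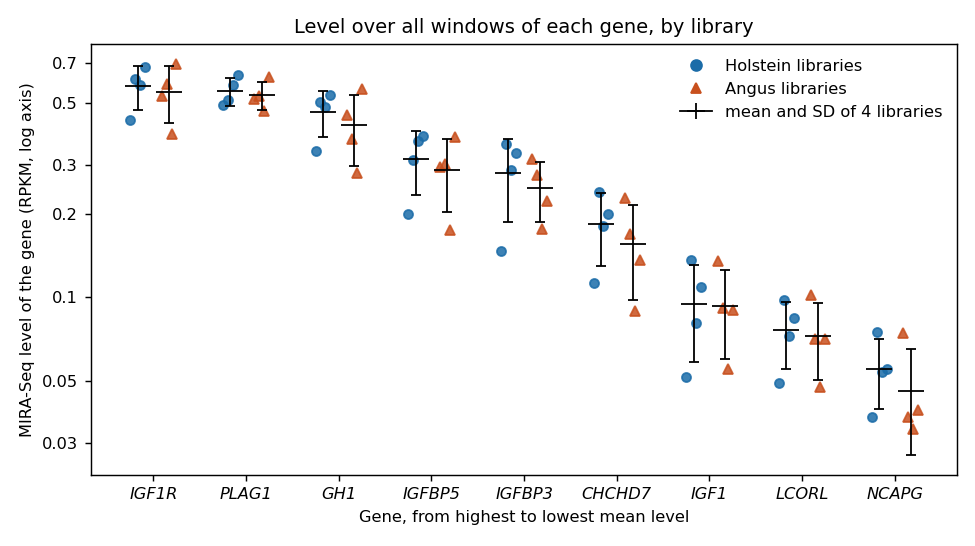
Level of each gene in RPKM (log axis) in the 4 Holstein and the 4 Angus libraries, with the mean and SD of each breed, ordered from the highest to the lowest mean. The points of the breeds overlap in all 9 genes, and the genes run from 0.564 RPKM in IGF1R to 0.0507 RPKM in NCAPG.

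IGF1 lies on the minus strand of chromosome 5 (66531606 to 66606605, UMD v3.1). Its RPKM was 0.0519, 0.136, 0.0812 and 0.109 in the Holstein cultures and 0.135, 0.0913, 0.0551 and 0.0899 in the Angus cultures. Holstein 2 and Angus 1 were the highest, so each breed held a high and a low library and the ranges overlapped. Of its 25 windows, 16 were under 0.25 CPM, and reads stood out in 2 windows. The higher was the window with coding exon 3, at 1.28 CPM on average, with 16, 34, 26 and 51 reads in the Holstein cultures and 35, 41, 31 and 34 reads in the Angus cultures. It held 17.9% of the reads of the gene and was 6.02 times the median window. The window with coding exon 2 followed at 0.813 CPM. The first window in the direction of transcription, with coding exon 1, held between 1 and 8 reads per library, 0.179 CPM on average. The windows next to the gene were at 0.379 and 0.307 CPM on the side of the start and at 0.0649 and 0.0619 CPM past its end.

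IGF1R, the receptor, lies on the plus strand of chromosome 21 (7965963 to 8268962, UMD v3.1), and its reads were spread broadly. Its RPKM was 0.434, 0.611, 0.584 and 0.678 in the Holstein cultures and 0.533, 0.589, 0.389 and 0.696 in the Angus cultures. The lowest 2 values were those of Holstein 1 and Angus 3, and the ranges of the breeds overlapped. A mean of at least 1 CPM was reached in 70 of its 101 windows, and only 6 were under 0.25 CPM. Of these 6, the first 2 windows of the gene were the lowest, at 0.0989 and 0.0949 CPM. The first window, which holds coding exon 1, had 0, 2, 5 and 9 reads in the Holstein cultures and 0, 1, 2 and 3 reads in the Angus cultures, and the window before it was lower still, at 0.0359 CPM. The level then rose to 0.416, 0.701 and 2.11 CPM in windows 3, 4 and 5. The first window thus held 0.0579 times the mean of the other windows of the gene, the lowest such ratio of the 9 genes.

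The highest window of IGF1R was window 54 (8124963 to 8127962), which carries no coding exon, at 8.22 CPM, with 154, 152, 256 and 280 reads in the Holstein cultures and 199, 203, 331 and 162 reads in the Angus cultures. Angus 3 was the highest library there, although it was the lowest over the whole gene, and the coverage in this window reached 79 reads at 1 position in a library, the highest of all 213 windows. It contributed 4.82% of the reads of the gene. The second highest was window 98, with coding exon 20, at 4.82 CPM. The windows past the end of the gene remained at 2.10 and 1.28 CPM, in the range of the gene itself.

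**Figure D2:**
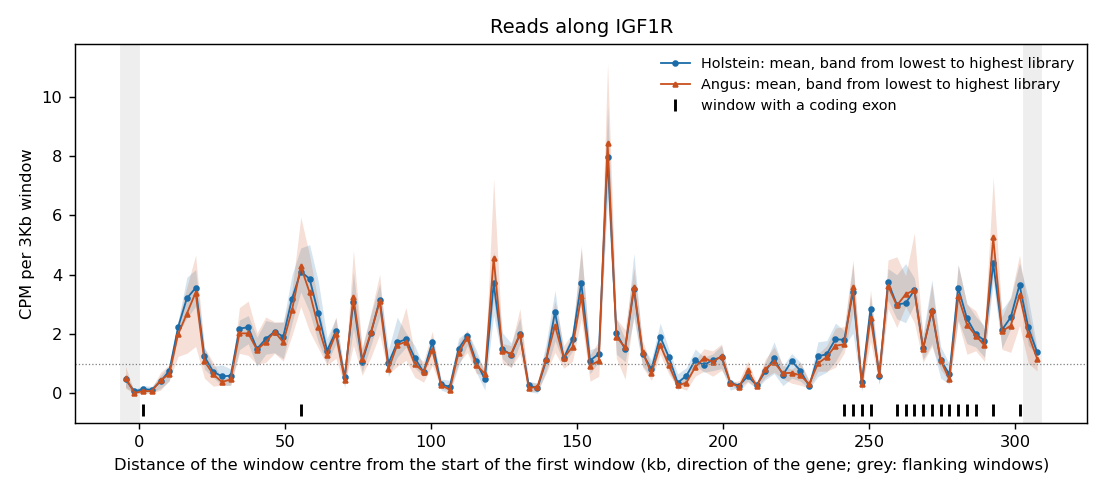
CPM of the 101 windows of IGF1R and 2 flanking windows on each side (grey) against the distance from the start of the first window in kb, as the mean of 4 libraries for each breed, with a band from the lowest to the highest library; black marks show windows with a coding exon, and the dotted line 1 CPM. The first windows lie near 0, at 0.0989 and 0.0949 CPM, the highest window reaches 8.22 CPM, and the bands of the breeds overlap along the gene.

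IGFBP3, which carries most of the circulating insulin-like growth factor, covers 4 windows of the plus strand of chromosome 4 (76704205 to 76716204). Its RPKM was 0.148, 0.357, 0.287 and 0.331 in the Holstein cultures and 0.314, 0.275, 0.176 and 0.223 in the Angus cultures, and the lowest value was that of Holstein 1. Its windows ranged from 0.505 CPM in the first to 1.08 CPM in the second, which holds coding exon 2. The windows before the gene were at 0.230 and 0.508 CPM and those past it, of which the farther belongs to IGFBP1, at 0.464 and 0.377 CPM. The gene was above its flanks in 8 of 8 libraries, by 2.01 times on average.

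IGFBP5, a binding protein made by fibroblasts and bone cells, covers 7 windows of the minus strand of chromosome 2 (105378934 to 105399933). Its RPKM was 0.1999, 0.313, 0.368 and 0.381 in the Holstein cultures and 0.296, 0.303, 0.174 and 0.380 in the Angus cultures. The reads lay towards the 3′ end. The window with coding exon 2 and the last window, with coding exon 4, had 2.21 and 1.97 CPM, the next 2 windows past the gene had 1.58 and 0.962 CPM, and the windows from the first to the fifth stayed between 0.0931 and 0.647 CPM. The highest window had 30, 48, 65 and 105 reads in the Holstein cultures and 59, 67, 35 and 58 reads in the Angus cultures. The windows before the start were at 0.492 and 0.255 CPM.

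GH1, the growth hormone gene, is contained in 2 windows of the minus strand of chromosome 19 (48766675 to 48772674), both with coding exons. Its RPKM was 0.337, 0.505, 0.486 and 0.535 in the Holstein cultures and 0.454, 0.371, 0.280 and 0.562 in the Angus cultures. The window at the 3′ end had 1.72 CPM and the first window 0.931 CPM, with 13, 21, 31 and 35 reads in the Holstein cultures and 25, 28, 13 and 27 reads in the Angus cultures in the latter. The neighbouring windows were at 0.364 and 0.871 CPM before the gene and 0.0953 and 0.659 CPM past it, and the gene was above these flanks in 8 of 8 libraries, by 2.66 times, the highest ratio of gene to flanks among the 9 genes.

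PLAG1 is the label of 5 windows of the minus strand of chromosome 14 (25007047 to 25022046), and its reads were concentrated in 1 of them. The first of these windows carries no coding exon, so the labelled windows may not reach the start of the gene. The last window of the gene, which holds its only labelled coding exon (exon 2), had 122, 128, 174 and 242 reads in the Holstein cultures and 160, 173, 175 and 144 reads in the Angus cultures, 6.29 CPM on average. All libraries lay between 5.54 and 7.70 CPM there, scaled to total counts. The TMM factors of the window test, 0.677 for Angus 3 and 1.12 for Holstein 2, widen this range. This window held 76.3% of the reads of the gene and 19.2 times the reads of its median window. The other windows had 0.309, 0.0721 and 0.328 CPM, and the first window, with no coding exon, 1.18 CPM. Over the gene the RPKM was 0.492, 0.514, 0.583 and 0.632 in the Holstein cultures and 0.519, 0.533, 0.468 and 0.621 in the Angus cultures. The SD was 11.0% of the mean, the smallest of the 9 genes in RPKM scaled to total counts. The SDs were not compared under TMM scaling. The windows past the gene were at 0.372 and 0.438 CPM.

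CHCHD7 has its first labelled window 30 kb from the windows labelled PLAG1, on the plus strand (25052047 to 25061046). Its 3 windows rose from 0.122 CPM in the first, with 2, 5, 1 and 5 reads in the Holstein cultures and 7, 2, 5 and 0 reads in the Angus cultures, to 0.657 and 0.749 CPM in the next windows, and the next 2 windows past the gene had 1.35 and 0.897 CPM. The RPKM was 0.112, 0.240, 0.181 and 0.2002 in the Holstein cultures and 0.229, 0.170, 0.0896 and 0.137 in the Angus cultures. The 10 windows between these labels carry no gene name, and part of PLAG1 may lie in them. They were looked at after the values had been seen. Starting from PLAG1 they had 1.2004, 0.572, 1.203, 0.586 and 2.58 CPM, and then 0.149, 0.121, 0.00420, 0.0372 and 0.0703 CPM up to the first window of CHCHD7. The eighth of them held 1 read in all 8 libraries together. A stretch of low counts therefore ran from about 15 kb before CHCHD7 into its first window, and it was present in both breeds. The first window labelled PLAG1 lies outside this stretch.

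**Figure D3:**
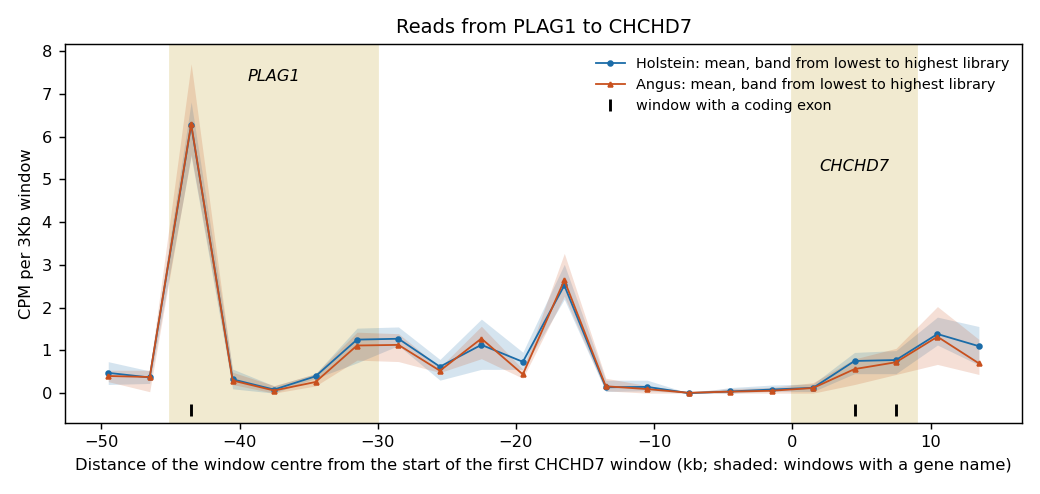
CPM of the windows from PLAG1 to CHCHD7 (shaded: windows that carry a gene name) and 2 windows beyond each gene, against the distance from the start of CHCHD7 in kb along the chromosome, as the mean of each breed with a band from the lowest to the highest of its 4 libraries; black marks show windows with a coding exon. The coding window of PLAG1 reaches 6.29 CPM, and the windows before CHCHD7 fall to between 0.00420 and 0.149 CPM.

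HMGA2 has no window under its own symbol. The RefSeq gene table gives its gene number to a locus that the files call LOC100297155, with 2 windows on the minus strand of chromosome 5 (48195606 to 48201605), of which the first is labelled with coding exon 2. These windows hold only part of the gene and are given apart from the other 9. The first had 10, 9, 11 and 26 reads in the Holstein cultures and 9, 9, 11 and 5 reads in the Angus cultures. In CPM every Holstein library, between 0.390 and 0.732, was above every Angus library, between 0.268 and 0.369. Such a separation with Holstein higher was found in 1.01% of the 887821 windows with a read. Here it rested on scaling to total counts. Divided by the TMM factors of the window test, 0.677 and 1.12, Angus 3 lay above Holstein 2. The window was too low for the CPM filter. In a fit without that filter the log2 fold change was 0.53 ± 0.35 (SE) with an adjusted p of 1.00 (edgeR likelihood-ratio test, 0.124 before adjustment), so the difference did not pass the test.

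NCAPG lies on the plus strand of chromosome 6 (38768282 to 38813281) and had the fewest reads per length. Its 15 windows together held 33, 78, 64 and 88 reads in the Holstein cultures and 96, 48, 45 and 33 reads in the Angus cultures. In RPKM Angus 1, at 0.0745, and Holstein 2, at 0.0750, were the highest, and the other 6 libraries lay between 0.0336 and 0.0550. None of its windows reached 0.5 CPM on average. Window 10, without a coding exon, was the highest with 0.458 CPM and between 7 and 18 reads per library, and 13 of 15 windows were under 0.25 CPM. The first window had 0, 3, 0 and 4 reads in the Holstein cultures and 3, 0, 1 and 0 reads in the Angus cultures. It is labelled with coding exon 4, and the windows before it carry the name of another locus, LOC100848037, at 0.174 and 0.152 CPM, so the first window of NCAPG may not contain its start. The windows past the gene had 0.277 and 0.1002 CPM.

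LCORL, on the minus strand 27 kb further along the chromosome (38840282 to 38993281), was likewise low, with RPKM of 0.0493, 0.0979, 0.0727 and 0.0844 in the Holstein cultures and 0.102, 0.0711, 0.0474 and 0.0706 in the Angus cultures. Of its 51 windows, 32 were under 0.25 CPM, and window 16 had no read in any library. Against this background window 28 (38909282 to 38912281), which holds no coding exon, had 24, 51, 57 and 79 reads in the Holstein cultures and 41, 34, 39 and 40 reads in the Angus cultures. Its 1.73 CPM was 10.2 times the median window and 15.0% of the reads of the gene. In CPM Holstein 2 to 4 lay between 2.16 and 2.22 and Angus 4 at 2.14, while Holstein 1 and the other Angus libraries lay between 1.18 and 1.43. The log2 fold change of this window was 0.25 ± 0.19 (SE) with an adjusted p of 1.00 (edgeR likelihood-ratio test). The first window, with coding exon 1, had between 1 and 4 reads per library, and the windows before it were at 0.285 and 0.380 CPM and those past the end at 0.0327 and 0.0530 CPM.

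**Figure D4:**
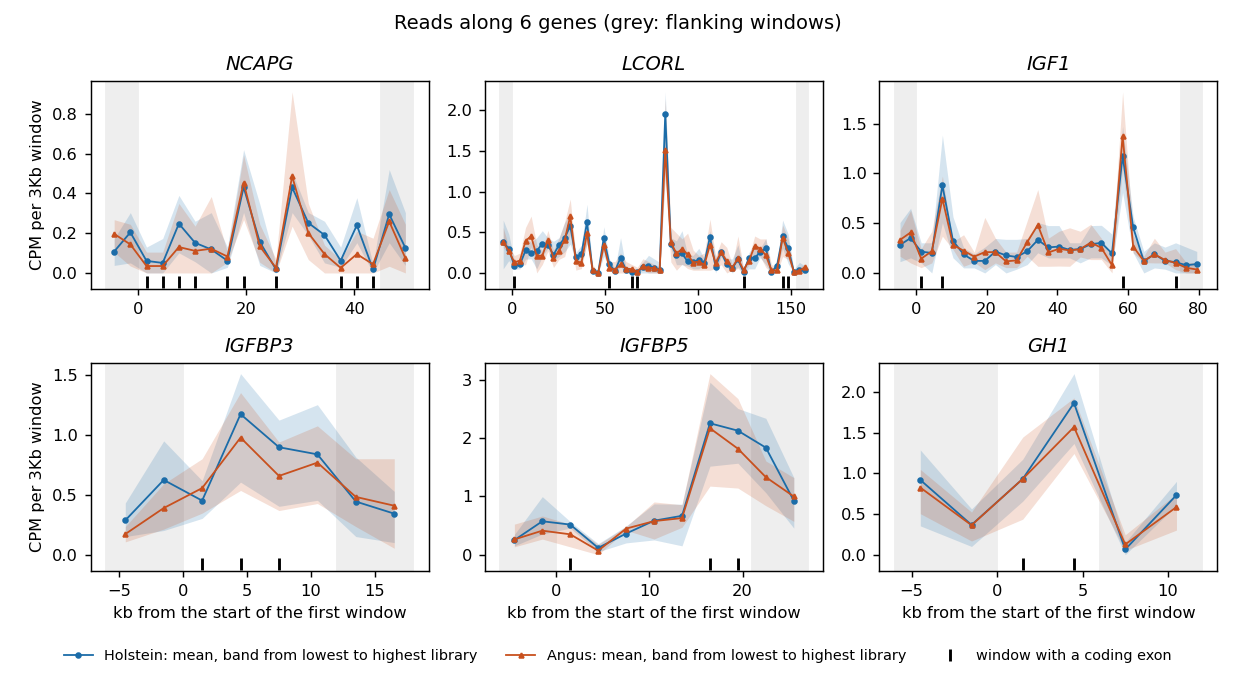
CPM of the windows of NCAPG, LCORL, IGF1, IGFBP3, IGFBP5 and GH1 with 2 flanking windows on each side (grey), against the distance from the start of the first window in kb in the direction of the gene, as the mean of each breed with a band from the lowest to the highest of its 4 libraries; the vertical axes differ between panels, and black marks show windows with a coding exon. LCORL and IGF1 each show a high window over a low background, at 1.73 and 1.28 CPM, and IGFBP5 rises towards its 3′ end.

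The first window that carries the symbol of a gene was compared with its other windows, since the files give no transcription start site. In NCAPG, where it is labelled with coding exon 4, in GH1, where it is labelled with coding exon 3, and in PLAG1 and CHCHD7, where it carries no coding exon, it may not hold the promoter. It had fewer reads than the mean of the other windows of the gene in 8 of 8 libraries for 8 of the 9 genes, and in 7 of 8 libraries for LCORL. The same was found for 41.8% of the 20798 genes with 2 or more windows. The ratio of the first window to the others was lowest for IGF1R (0.0579), CHCHD7 (0.174) and NCAPG (0.298), intermediate for IGFBP5 (0.439), LCORL (0.485), GH1 (0.543) and IGFBP3 (0.569), and highest for IGF1 (0.626) and PLAG1 (0.677). The median ratio over all genes was 0.707. The count depended on how the rest of the gene was summarised. Against the median of the other windows, which a single high window does not move, it was met by 4 of 9 genes (CHCHD7, IGF1R, GH1 and IGFBP3), beside 32.8% of all genes, and for PLAG1 the first window was above that median in every library. With the first 2 windows averaged it was met by 5 of the 7 genes long enough, beside 45.5% of all genes.

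Windows with a coding exon differed from the other windows of the same gene in opposite directions. In PLAG1 the coding window was 13.3 times the mean of the others, in CHCHD7 5.75 times, in IGFBP5 3.57 times, in IGF1 2.67 times and in IGF1R 1.61 times, in 8 of 8 libraries each. In LCORL and NCAPG, the pair on chromosome 6, the coding windows had 0.589 and 0.544 times the level of the others and were below them in 8 of 8 libraries. IGFBP3 showed neither (0.978 times, above in 4 of 8 libraries), and both windows of GH1 are coding. Coding windows were above the others in 8 of 8 libraries in 5 of these 8 genes, beside 50.6% of the 12976 genes with both kinds of window, and below in 2 of 8, beside 15.8%. The genes themselves were above their flanks in 8 of 8 libraries for GH1, PLAG1, IGFBP3, IGF1R and IGF1, with ratios from 2.66 down to 1.38. The remaining ratios were 1.19 in LCORL, 1.10 in IGFBP5 and 0.865 in both CHCHD7 and NCAPG, with the gene above its flanks in 6, 6, 1 and 4 of 8 libraries.

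To compare the breeds, windows with at least 1 CPM in at least 4 of 8 libraries were tested, and a window was called when its FDR was below 0.1 and its fold change at least 2. This CPM filter was passed by 77 of the 213 windows, beside 12.8% of all windows and 18.9% of windows that carry any gene name. The 77 were very unequally shared: IGF1R held 69 of them, PLAG1 and IGFBP5 2 each, and LCORL, IGF1, GH1 and IGFBP3 1 each, while CHCHD7 and NCAPG had none. Of the flanking windows, 7 of 36 passed. For most of these genes a breed difference could therefore be measured in single windows only where reads were concentrated, and the sum over the gene was tested as well.

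None of the 77 windows was called between Holstein and Angus, beside 0.231% of the 115360 windows tested (267 windows) by the edgeR likelihood-ratio test. At this share 77 windows would seldom hold a call. The quasi-likelihood test of edgeR and DESeq2 called none of the 77 either. In none of the 77 did all libraries of a breed lie above all of the other, which was the case for 1.31% of windows tested. Fold changes were small in either direction, with log2 values (Holstein over Angus) from -0.47 to 0.25 and a median of -0.02, and 35 of 77 above 0. The median of all windows tested was -0.0021. The 95% intervals of the 77 windows stayed between -0.91 and 0.69, within the 2-fold limits.

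An unadjusted p under 0.05 was found in 3 of the 77 windows, all of IGF1R and all higher in Angus, beside 4.94% of all windows tested; the same number was found by the quasi-likelihood test, 2 by DESeq2, and 0 with libraries scaled to total counts only. With a library left out the number was 0 without Angus 4, 1 without Holstein 3 or Holstein 4, and 2 or 3 without any of the others. Window 41 had 52, 85, 98 and 170 reads in the Holstein cultures and 102, 124, 94 and 135 reads in the Angus cultures, with a log2 fold change of -0.40 ± 0.17 (SE). Window 98, with coding exon 20, had 74, 94, 135 and 163 reads in the Holstein cultures and 141, 135, 123 and 136 reads in the Angus cultures, with -0.38 ± 0.17. Window 65 had 14, 28, 22 and 36 reads in the Holstein cultures and 39, 34, 22 and 28 reads in the Angus cultures, with -0.47 ± 0.22. The lowest adjusted p of the 3 was 0.844 (edgeR likelihood-ratio test), and in each of them the ranges of the breeds overlapped in CPM, with Angus 4 the highest library.

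Over whole genes, 0 of 9 were called, beside 0.0622% of the 19293 gene bodies tested (12 genes) by the edgeR likelihood-ratio test. The quasi-likelihood test and DESeq2 called 0 of 9 as well, and 0 of 9 had an unadjusted p under 0.05, beside 1.94% of all gene bodies tested (374 genes). This share depended on 1 library. Without Angus 1 such a p was found in 1227 of 18944 gene bodies, and without any other single library in 292 to 431. In each of these runs 0 of the 9 genes had one, and the cause was not tested. The breeds overlapped in RPKM in all 9 genes, and non-overlap was seen in 0.327% of gene bodies. The log2 fold change was -0.13 ± 0.18 (SE) for IGF1 and -0.08 ± 0.14 for IGF1R, 0.02 ± 0.16 for IGFBP3, 0.00 ± 0.15 for IGFBP5 and 0.04 ± 0.17 for GH1. It was -0.10 ± 0.17 for PLAG1 and 0.07 ± 0.21 for CHCHD7, and 0.09 ± 0.23 for NCAPG and -0.09 ± 0.14 for LCORL. The adjusted p was 1.00 for each (edgeR likelihood-ratio test). Their 95% intervals ran from -0.48 (IGF1) to 0.53 (NCAPG), so that a difference of 2-fold between breeds lay outside the interval of each gene. Differences inside these intervals were not excluded with 4 cultures per breed. The SE was 0.14 for both IGF1R, with 36068 reads over the 8 libraries, and LCORL, with 2426 reads.

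The direction of these small differences rested on the scaling. With the TMM factors used, 5 of 9 gene bodies were higher in Holstein. Scaling to total counts only moved the median log2 fold change of all gene bodies by 0.15, and all 9 genes were then above 0, by 0.03 to 0.26. None of the 9 passed the test under either scaling.

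**Figure D5:**
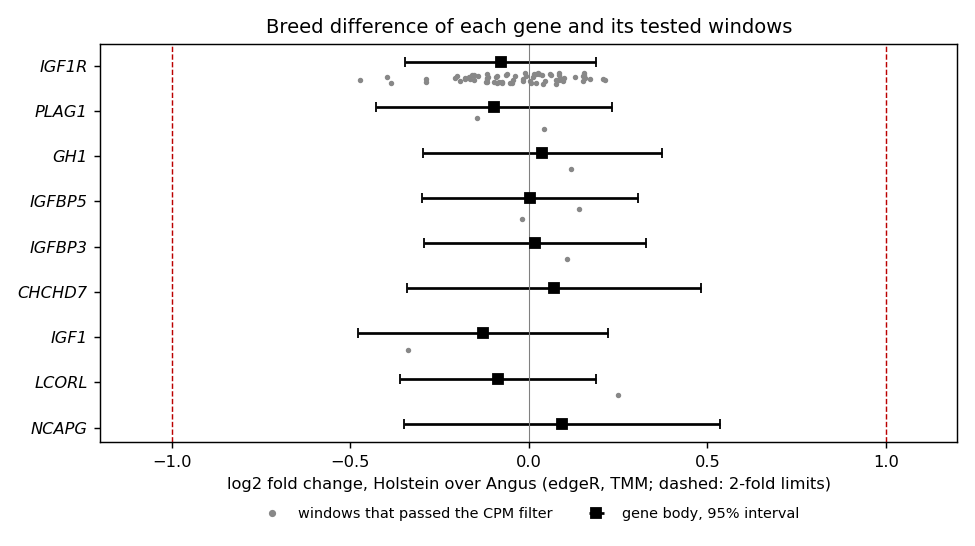
Log2 fold change of Holstein over Angus for each gene body (squares, with 95% intervals) and for each window that passed the CPM filter (grey points), with dashed lines at a 2-fold difference. All points lie between -0.47 and 0.25, and each gene body interval crosses 0 and stays inside the 2-fold limits.

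Wider lists of genes around these loci gave no called gene body, beside 0.0622% of all gene bodies tested. At this share lists of this size would seldom hold a call. Of 26 further genes of the growth hormone and insulin-like growth factor axis, 23 were tested and 0 called, with 7 of 23 log2 fold changes above 0 and a median of -0.03, beside -0.0041 over all gene bodies tested. By gene level they ran from 0.0323 RPKM in POU1F1, the pituitary transcription factor, to 2.96 RPKM in IGFALS, the acid-labile subunit that binds IGFBP3 complexes. IRS1, an adaptor of the receptor, was singled out after its value was seen. It was the only one of the 23 with an unadjusted p under 0.05, beside 1.94% of all gene bodies tested. Its log2 fold change was -0.39 ± 0.14 (SE), with an adjusted p of 0.810 (edgeR likelihood-ratio test). Of the PLAG and HMGA families with their RNA-binding partners 8 of 8 genes were tested, from LIN28B at 0.0572 RPKM to HMGA1 at 0.540 RPKM, and 0 were called. Of the other condensin subunits 7 of 7 were tested, from SMC4 at 0.0375 RPKM to NCAPH2 at 2.11 RPKM, and 0 were called. Of 12 neighbours of PLAG1 and CHCHD7, 11 were tested and 0 called, with levels from 0.112 RPKM in SDR16C6 to 0.613 RPKM in MOS. Of 11 neighbours of NCAPG and LCORL in the files, 10 were tested and 0 called, with levels from 0.0385 RPKM in IBSP to 0.526 RPKM in QDPR. The medians of the 4 lists were 0.00 for the PLAG and HMGA families, -0.03 for condensin, -0.01 for the neighbours of PLAG1 and -0.07 for those of NCAPG, all as log2 fold changes. By unadjusted p under 0.05, 0 genes were found in each of these 4, beside the same 1.94%.

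Pull-down reads do not measure expression, so the cell type of the cultures could be described only by methylation at marker genes. The first windows of 10 fibroblast markers had a median of 0.0527 RPKM. The medians were 0.631 RPKM for 5 keratinocyte markers, 0.181 RPKM for 4 endothelial markers, 0.256 RPKM for 4 leukocyte markers and 0.301 RPKM for 4 melanocyte markers, beside 0.132 RPKM over all genes. Single genes overlapped between the lists. Fibroblast markers ran from 0.00827 RPKM in DCN to 0.114 RPKM in VIM. Below VIM lay TP63 (0.0349 RPKM), TEK (0.0562 RPKM), PMEL (0.0685 RPKM) and PTPRC, the lowest genes of the other lists. The highest of these were KRT17 (2.22 RPKM), CDH5 (0.964 RPKM), DCT (0.671 RPKM) and SPI1 (1.25 RPKM). The CpG content of these windows was not compared. No gene body of these 5 lists was called between breeds, beside 0.0622% of all gene bodies tested. At an unadjusted p under 0.05 there were 0, beside 1.94% (edgeR likelihood-ratio test).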

How the data were processed

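MIRA-Seq libraries of 8 cultures were analysed (4 per breed, from the sample labels). The authors filtered reads, aligned them to UMD v3.1 with NextGENe 2.3.4 (CASAVA 1.7 is also in the submitters' processing notes) and deposited raw counts per 3Kb window, without normalization, with a gene symbol and coding exon. Minimum, maximum and average coverage were deposited as an unscaled signal, of which only the maximum was used. Handling of duplicate and multiply matching reads is not given in the sources used here; it affects repeats. A window carries 1 symbol, so overlapping genes are not separated.

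CPM and RPKM used window totals of 18691111 to 35525554 reads as library size. Breeds were compared in R 4.3.3 with edgeR 4.0.16. The likelihood-ratio test, the Benjamini-Hochberg adjustment (over all windows or gene bodies tested) and the thresholds for windows follow the study's methods; TMM scaling and estimateDisp were chosen here. Filter: CPM of at least 1 in 4 of 8 libraries. Called: FDR < 0.1 and fold change of at least 2. Gene bodies summed all windows of a symbol; symbols on more than 1 sequence or strand were left out, leaving 25997 of 26107. SEs were obtained from each log2 fold change and the chi-square statistic of its p, and intervals are 1.96 SE. The procedure was also run on simulated counts, whose dispersion was set above that of these data (0.0194 for gene bodies and 0.0360 for windows). The simulation did not copy the concentrated reads of Holstein 1 and Angus 3, so it does not show how the procedure performs on these data. Alternatives included edgeR's quasi-likelihood test and DESeq2 1.42.0. Other steps used Python 3.11.15, numpy 2.4.6 and pandas 2.3.3.

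Older symbols were matched through a RefSeq gene table of another assembly, used for names only. Members and lists were chosen with earlier results of these data known. Named were each gene body, first, highest and flanking windows, and of wider lists the highest and lowest gene. Equal animal numbers did not mark shared samples.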

Additional observations from a re-analysis of the deposited data

Results flagged for a closer look

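In 54 groups of 4 libraries (the gene level, the first window and the highest window of the 9 genes in each breed), 2 had a library far from the other 3; chance flags about 1 in 20 groups. In the highest window of LCORL, window 28, Holstein 1 had 1.21 CPM against 2.16 to 2.22 CPM in the other Holstein libraries. Over the NCAPG gene body, Angus 1 had 0.0745 RPKM against 0.0336 to 0.0392 RPKM in the other Angus libraries. Both flags were found in values scaled to total counts, and the TMM factors of the tests narrow both distances. Over windows the factor was 0.817 for Holstein 1 and 1.09 to 1.22 for the other Holstein libraries. Over gene bodies it was 1.11 for Angus 1 and 0.667 for Angus 3.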

How the results depend on the processing

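No window and no gene body of the 9 genes was called under any alternative run: other tests, scalings, filters and thresholds, each library left out in turn, unplaced scaffolds left out, the first and last window left out (6 genes with windows remaining), and, chosen after seeing the data, Holstein 1 and Angus 3 left out together. Over all windows the calls numbered 141 by the quasi-likelihood test and by DESeq2, 392 with total counts only, 905 with no CPM filter, 425 with no fold change minimum, 153 without unplaced scaffolds, 531 without Holstein 1 and Angus 3, and 145 to 564 with a library left out (564 without Holstein 1, 176 without Holstein 3 and 145 without Holstein 4), beside 267. Over all gene bodies they numbered 0 by the quasi-likelihood test (338 at an unadjusted p under 0.05), 6 by DESeq2, 14 with total counts only, 30 with no CPM filter, 20 with no fold change minimum, 5 without the first and last window, and 7 to 18 with a library left out (7 without Holstein 4, 8 without Holstein 2 and 18 without Angus 3), beside 12. Over gene bodies, 114 of 141 alternative fold changes kept their sign, all between -0.29 and 0.34 with a lowest adjusted p of 0.791. The sign turned for IGFBP5 with DESeq2 (-0.0031), with its size factors in edgeR (-0.0017), with Holstein 1 and Angus 3 left out (-0.016) and without the first and last window (-0.10), and with total counts only for IGF1 (0.0314), LCORL (0.0654), PLAG1 (0.0571) and IGF1R (0.0646). With a library left out the values ran from -0.0564 to 0.0807 in IGFBP3, -0.0798 to 0.108 in IGFBP5, -0.287 to 0.0336 in IGF1, -0.169 to 0.0417 in LCORL, -0.219 to 0.0132 in PLAG1, -0.0818 to 0.145 in GH1, -0.0191 to 0.243 in CHCHD7 and -0.0718 to 0.336 in NCAPG. The sign turned without Angus 1 in IGF1 and LCORL, without Angus 2 in GH1, without Angus 3 in PLAG1, without Holstein 2 or Angus 4 in CHCHD7, without these or Angus 2 in NCAPG, and without any of 4 libraries in IGFBP3 and of 5 in IGFBP5, and the cause was not tested. First windows below the rest numbered 8 of 9 genes, 8 to 9 with a library left out, 4 against the median and 5 of 7 with the first 2 windows averaged. Animal numbers are shared by the breeds, but same-numbered libraries did not deviate together. Their correlations ran from -0.21 to 0.13 over windows (mean -0.02) and from -0.54, for number 1, to 0.18 over gene bodies (mean -0.09). With the number as a replicate block 0 windows and 0 gene bodies of the 9 genes were called, with IGFBP5 at -0.013. Over all, 346 windows and 14 gene bodies were called in that run. Depth limits single windows of CHCHD7, NCAPG and most of LCORL and IGF1, which had too few reads to pass the CPM filter. Without that filter, 3 of 212 windows of the 9 genes had an unadjusted p under 0.05, beside 40433 of 887821 windows. LCORL window 4, singled out after its value was seen, had a log2 fold change of -1.04 ± 0.38 (SE) there. Its p was 0.0056 before adjustment and 0.825 after (edgeR likelihood-ratio test), and the breeds overlapped in CPM.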
